A study of Mus musculus with 4 samples.

Results

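Peaks of the Sox2 fusion Halo-Sox2 were compared with those of Halo-Sox2M, the same fusion with changes in its DNA-binding HMG box. Mitochondrial DNA, unplaced and random sequence, and 11 bins of 100 kb that held 15 or more peaks in any of the 4 deposited lists were dropped. The comparison held 5829 of 6558 Halo-Sox2 peaks and 954 of 1711 Halo-Sox2M peaks, which together make 6783 of the 29255 peaks of the series. The libraries were made by ChIP-exo, in which an exonuclease trims the isolated DNA up to the crosslinked protein, from D3 mouse embryonic stem cells. Both proteins were fused to HaloTag, a tag that binds covalently to its ligand, and both were isolated on HaloLink resin. Halo-Sox2M carries changes labelled M47G, F50 and M51G, and no replacing residue is given for F50. The other lists, endogenous Sox2 isolated with an antibody and Halo-Sox2D, truncated to Sox2 residues 1 to 120 and isolated on the resin, were used only to set the comparison in place. Each group is 1 library, so replicates cannot check any difference and no p-value is given. The labels give no drug treatment or time point, and how much of each fusion the cells made is not given in the sources used here. Neither an input nor a resin-only control was used here, nor were expression data with which to check the cell line against its markers.

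Sox2 belongs to the Sry-related HMG-box family, whose HMG domain lies in the minor groove of DNA, inserts hydrophobic side chains between base pairs and bends the helix. Its preferred sequence is a short A/T-rich core read on either strand as CATTGT or CTTTGT. In embryonic stem cells Sox2 is known to bind enhancers and promoters together with Oct4, often at composite elements in which the Sox core lies beside an octamer-type site, and to hold the cells in the pluripotent state.

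The Sox core is shown first at 5 Halo-Sox2 promoter peaks, chosen after their values were seen as places where the core lay close to the peak and Halo-Sox2M had no peak within the promoter. Each of the 5 also had endogenous Sox2 within 500 bp, as did 10 of the 33 Halo-Sox2 promoter peaks with a core within 20 bases, so they do not stand for all of them. Each stretch holds 61 bases around a peak centre, 5′ to 3′ along the gene, from RefSeq promoter sequence of GRCm38.p6 (the coordinates of mm10). Capitals mark ACAAAG or ACAATG, or the same core on the other strand, CTTTGT or CATTGT.
Nanog chr6:122707381-122707441 plus strand: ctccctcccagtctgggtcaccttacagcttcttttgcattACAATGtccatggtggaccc
Neurog1 chr13:56252184-56252244 minus strand: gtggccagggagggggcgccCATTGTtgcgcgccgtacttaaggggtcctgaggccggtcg
Stk38 chr17:29008069-29008129 minus strand: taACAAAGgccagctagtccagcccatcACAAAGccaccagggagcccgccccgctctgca
Zfp428 chr7:24506975-24507035 plus strand: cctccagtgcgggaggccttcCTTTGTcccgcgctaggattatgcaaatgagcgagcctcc
Ppp1r18 chr17:35866016-35866076 plus strand: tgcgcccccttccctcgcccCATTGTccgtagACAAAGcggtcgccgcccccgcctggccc
Nanog encodes a homeobox factor of the pluripotency network, and its core follows directly on an octamer-type stretch, the arrangement of a composite Oct4-Sox2 element. Neurog1 encodes a proneural bHLH factor, and Stk38 a serine/threonine kinase. Zfp428 encodes a zinc finger protein and Ppp1r18 a regulatory subunit of a protein phosphatase.

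At 5 promoters with Halo-Sox2M peaks, also chosen after their values were seen, the capitals mark the bases of the peak itself.
Clpp chr17:56990172-56990232 plus strand: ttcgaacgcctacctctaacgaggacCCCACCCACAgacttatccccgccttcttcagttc
Nme1 chr11:93968372-93968432 minus strand: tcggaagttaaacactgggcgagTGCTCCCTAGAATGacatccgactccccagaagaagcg
Med4 chr14:73509929-73509989 plus strand: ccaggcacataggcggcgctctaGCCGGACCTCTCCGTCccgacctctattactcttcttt
Cops2 chr2:125859132-125859192 minus strand: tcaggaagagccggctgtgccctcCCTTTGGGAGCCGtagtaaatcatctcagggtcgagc
Psmg3 chr5:139826896-139826956 minus strand: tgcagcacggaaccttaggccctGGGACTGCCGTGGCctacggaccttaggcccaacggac
None of these 5 stretches holds ACAAAG or ACAATG on either strand within 10 bases of the peak centre. That was so at each of the 61 Halo-Sox2M promoter peaks searched, so any choice would show it. The Halo-Sox2 stretches above were picked for a core within 20 bases. At that width 5 of 54 Halo-Sox2M peaks and 33 of 207 Halo-Sox2 peaks held a core. The printed stretches thus do not stand for their lists and are not compared. Clpp encodes a mitochondrial protease subunit, Nme1 a nucleoside diphosphate kinase, Med4 a Mediator subunit, Cops2 a subunit of the COP9 signalosome and Psmg3 a chaperone of proteasome assembly.

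Rps3, the gene of a ribosomal protein of the small subunit, had the only promoter window that held centres of both proteins. In its 240 bases the first run of capitals is the Halo-Sox2M peak and the second is the Halo-Sox2 peak.
Rps3 chr7:99483700-99483939 minus strand: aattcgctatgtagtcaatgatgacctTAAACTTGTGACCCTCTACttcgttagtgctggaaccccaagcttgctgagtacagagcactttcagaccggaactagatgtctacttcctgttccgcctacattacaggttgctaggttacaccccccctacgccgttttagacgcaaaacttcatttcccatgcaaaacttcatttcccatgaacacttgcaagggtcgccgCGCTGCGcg
The centres of these peaks lay 198 bp apart, with Halo-Sox2 just inside the start of the gene and Halo-Sox2M upstream of it.

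Few of the places bound by Halo-Sox2 had a Halo-Sox2M peak. Peaks whose centres lay within 500 bp of each other were joined into 5148 Halo-Sox2 places, and 112 of them (2.18%, 95% Wilson interval 1.81% to 2.61%) had a Halo-Sox2M centre within 500 bp. These are called staying places, and 5036 had none. The intervals here and throughout describe counting error alone and treat neighbouring peaks as independent, which they are not. With neither reads nor scores in the files, depth is unknown, and a short list cannot be told apart from a shallow library or a strict calling threshold.

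To set list length aside, each list was thinned to 954 peaks and the exact mean over all such draws was taken. Endogenous Sox2 then reached a mean of 255 Halo-Sox2 places (4.96%), while the whole Halo-Sox2M list reached 112 (2.18%) and thinned Halo-Sox2D 89.5 (1.74%). Halo-Sox2 itself, thinned in the same way, kept 932 of its places (18.1%), the level that a list drawn from the same peaks gives. At one length Halo-Sox2M thus met fewer Halo-Sox2 places than the antibody library did. Peaks left by thinning at random may differ from those that a shallower library would give.

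**Figure D1:**
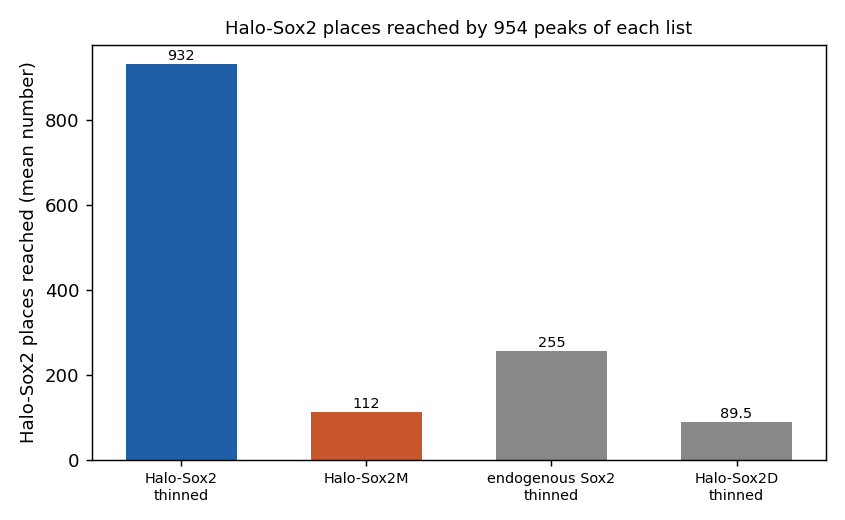
Bars give the mean number of Halo-Sox2 places with a centre within 500 bp when each list is held to 954 peaks; the Halo-Sox2M list is whole. Halo-Sox2M reached 112 places, between Halo-Sox2D at 89.5 and endogenous Sox2 at 255.

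The places that stayed were more often those with several Halo-Sox2 peaks. Of places with 1 peak, 1.58% stayed (73 of 4610). Of places with 2 peaks, 5.50% stayed (24 of 436), and of those with 3 or more, 14.7% (15 of 102). The difference between the last class and single peaks was 13.1 percentage points (95% Newcombe interval 7.52 to 21.3). A place with more peaks spans more DNA, and its part in this order was not tested.

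Places that endogenous Sox2 also held stayed more often than the others. The share was 4.72% (51 of 1080) with an endogenous Sox2 centre within 500 bp and 1.50% (61 of 4068) without, a difference of 3.22 points (2.03 to 4.69). Among single-peak places the shares were 3.42% (27 of 789) and 1.20% (46 of 3821), a difference of 2.22 points (1.09 to 3.76). Among places with 2 or more peaks they were 8.25% and 6.07%, and the interval of that difference, -2.38 to 6.59 points, includes 0. Places with Halo-Sox2D and no endogenous Sox2 stayed at 1.38% (7 of 506), against 1.52% (54 of 3562) for places with neither, a difference of -0.13 points (-0.98 to 1.35).

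Crowding of Halo-Sox2 peaks in the surrounding 100 kb went with staying too. The share rose from 1.23% where the bin held 1 Halo-Sox2 peak through 1.72% for 2 peaks and 4.93% for 3 to 4 peaks to 8.89% for 5 or more peaks. Among places that were alone in their bin, 3.17% stayed with endogenous Sox2 (16 of 504) and 0.837% without it (21 of 2510). By position, 1.32% of places inside a protein-coding gene and over 1 kb from its ends stayed. The share was 2.60% within 1 kb of a gene end and 2.81% outside genes.

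**Figure D2:**
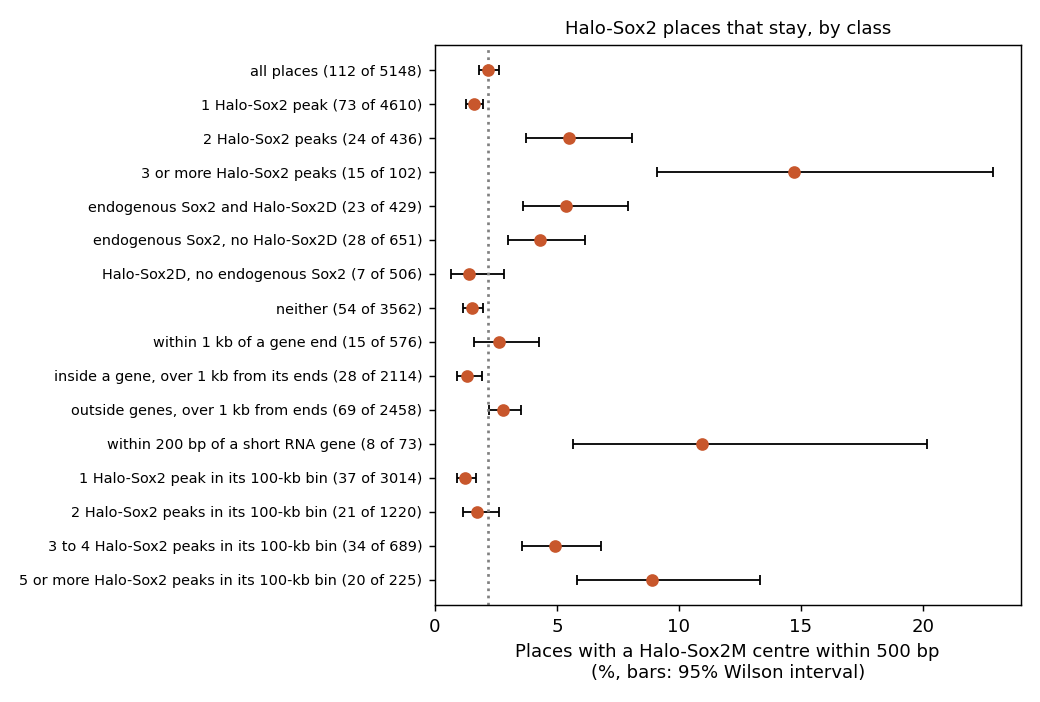
Each point is the percentage of Halo-Sox2 places in a class that had a Halo-Sox2M centre within 500 bp, with its 95% Wilson interval, and the dotted line is the share of all places, 2.18%. Places with 3 or more Halo-Sox2 peaks lie highest, at 14.7%.

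Staying places clustered along some chromosomes. On chromosome 14, 17 of 309 places stayed (5.50%) and on the X chromosome 7 of 100 (7.00%), while on chromosome 1 it was 2 of 330 (0.606%). When staying places within 1 Mb of the next were chained, 5 spans held 3 or more of them, 33 in all (29.5% of those that stayed). The widest span, on chromosome 14 from 3.65 to 7.49 Mb, held 12 staying places of 48. The closest centres were 111 to 121 bp apart at a place near each of Gm3239, Gm3194, Gm3383, Gm3476, Gm3739 and Gm3752. At the rest of the 12 they were 7 to 185 bp apart. A span on chromosome 4 from 145.7 to 147.6 Mb, which covers the genes Zfp993 and Zfp978 of a KRAB zinc finger cluster, held 9 of 49. A span on chromosome 8 near 20.1 to 20.6 Mb held 5 of 19.

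The remaining spans were short and each of their Halo-Sox2 places stayed. On the X chromosome 4 of 4 places lay in the lncRNA gene 4933407K13Rik, each with its Halo-Sox2M centre 331 to 345 bp away. On chromosome 11, 3 of 3 places lay in genes of U2 snRNA, an RNA of the spliceosome, with centres 10 to 14 bp apart. These spans were picked for their staying places, so their shares are a description. How multi-mapping reads were treated is not known, so staying places with recurring separations may not be separate signals. This was not tested.

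Outside the 5 spans 79 of 5025 places stayed (1.57%, 1.26% to 1.95%). There the share was 12.8% for places with 3 or more peaks and 1.13% for single peaks, and 3.60% with endogenous Sox2 against 1.03% without. The order by crowding was partly lost outside the spans, with 3.83% for 3 to 4 peaks and 3.49% for 5 or more peaks. At 855 peaks, the length of the Halo-Sox2M list outside the spans, Halo-Sox2D reached a mean of 79.0 places, as many as Halo-Sox2M, and endogenous Sox2 reached 229.

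Where both proteins had a peak, the centres were usually close. The closest pair of centres at a staying place was 26.5 bp apart in the median. It was within 10 bp at 41 of the 112 places, over 10 and up to 50 bp at 21, over 50 and up to 200 bp at 37 and over 200 bp at 13. Just inside the limit of 500 bp, beyond 400 bp, there was 1 place, and 20 places had their nearest Halo-Sox2M centre beyond 500 and up to 1000 bp away. Halo-Sox2M had as many peaks as Halo-Sox2 at 66 staying places, fewer at 24 and more at 22.

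Seen from the other side, a Halo-Sox2 centre lay within 500 bp of 202 of the 954 Halo-Sox2M peaks (21.2%, 18.7% to 23.9%). With the Halo-Sox2 list thinned to 954 peaks the mean was 59.5 (6.24%). Without the 3 Halo-Sox2M places of 10 or more peaks the share was 18.2%. No peak of any other list lay within 500 bp of 642 Halo-Sox2M peaks (67.3%). Of the Halo-Sox2M peaks with Halo-Sox2 within 500 bp, 39.6% also had endogenous Sox2 there (80 of 202), against 7.45% of those without Halo-Sox2 (56 of 752).

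**Figure D3:**
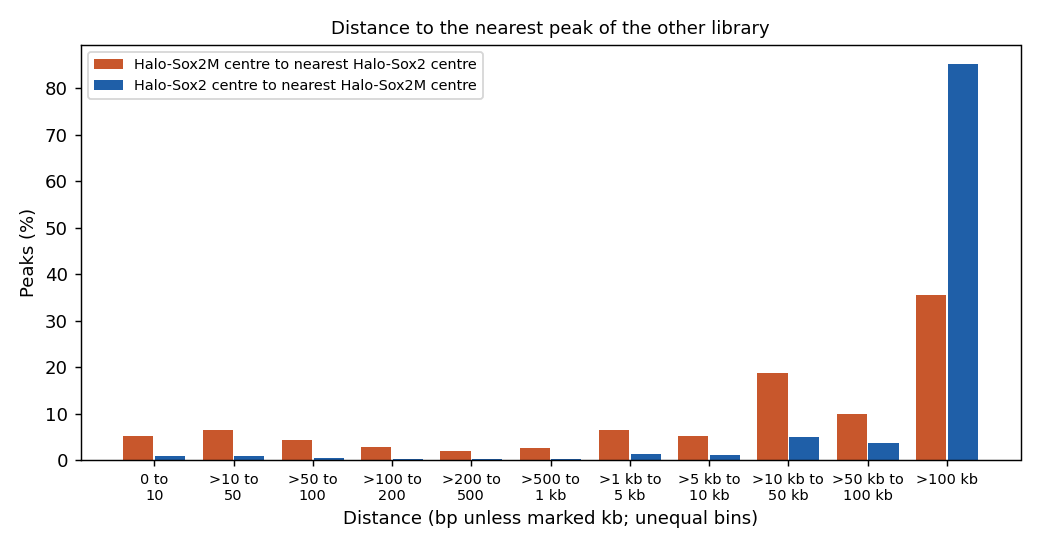
Bars give the percentage of peaks of one library by the distance from their centre to the nearest centre of the other, in unequal bins of bp or kb. Of Halo-Sox2M peaks 35.6% lay over 100 kb from any Halo-Sox2 peak, and of Halo-Sox2 peaks 85.1% lay that far from any Halo-Sox2M peak. The 5829 Halo-Sox2 and 954 Halo-Sox2M peaks were not thinned here, so list length bears on both shares.

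Some staying places lay in or within 50 kb of list genes, and 5 such genes are described here. Gene coordinates are those of mm10, exons and introns were not told apart, and "above" and "below" mean higher and lower coordinates. In Fgfr2, a receptor for fibroblast growth factors (chr7:130162451-130266808), Halo-Sox2M peaks lay at 130264831 to 130264837 and 130264889 to 130264896. Halo-Sox2 peaks in the gene lay at 130264800 to 130264813, 130264833 to 130264847 and 130266026 to 130266037, so that the closest centres were 6 bp apart. In Mtf2, a Polycomb-like subunit that recruits PRC2 (chr5:108065660-108109219), the Halo-Sox2M peak at 108077195 to 108077196 lay 3 bp from the centre of a Halo-Sox2 peak at 108077191 to 108077206. Endogenous Sox2 had 8 peaks at Mtf2 and 3 at Fgfr2.

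Spry2, an inhibitor of receptor tyrosine kinase signalling (chr14:105891947-105896819), had 11 Halo-Sox2 and 2 Halo-Sox2M peaks. The Halo-Sox2M peak 40.5 kb below the gene lay 58 bp from a Halo-Sox2 centre, and the other lay inside the gene, where Halo-Sox2 had none. At Klf2, a Krüppel-like factor of naive pluripotency (chr8:72319062-72321654), 1 of 4 Halo-Sox2 peaks, 12.8 kb above the gene, had a Halo-Sox2M centre 60 bp away. The protein-coding gene nearest to that place was Eps15l1, an endocytosis gene 6.54 kb away, so that by the nearest-gene rule Klf2 had 0 Halo-Sox2M peaks. Foxd3, a forkhead factor of early embryo cells (chr4:99656299-99658671), had its Halo-Sox2M peak 14.4 kb below the gene and 51 bp from the nearer of 2 Halo-Sox2 peaks. At Spry2 and Klf2 the other Halo-Sox2 peaks had no Halo-Sox2M centre within 500 bp.

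At other genes both proteins had peaks in different places. At Sox2 itself (chr3:34649995-34652461) Halo-Sox2 had a peak inside the gene at 34650017 to 34650029 and a pair 16.1 and 16.2 kb above it, while the Halo-Sox2M peak at 34654028 to 34654036 lay 1.57 kb above the gene, 4009 bp from the nearest Halo-Sox2 centre. At Tcf7l1, which encodes a repressor of Wnt targets, 5 Halo-Sox2 peaks and 1 Halo-Sox2M peak lay no closer than 17864 bp. At Rif1, a telomere and replication-timing factor, the nearest centres were 32629 bp apart. Pou5f1, the gene of Oct4, had 3 Halo-Sox2 peaks and Nanog had 3, with no Halo-Sox2M peak within 50 kb of either.

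Places within 1 kb of the end of a protein-coding gene made up 15 of the 112 that stayed. The one with most peaks lay above Wls, which encodes the carrier that Wnt proteins need for secretion (chr3:159839650-159938666), with 3 Halo-Sox2 and 5 Halo-Sox2M peaks whose nearest centres were 2 bp apart. At Ctc1, a telomere maintenance gene, the place lay at the tRNA gene n-TIaat5 next to it. Places at Ccnc, which encodes cyclin C, and at Nme1, Clpp and Rps3 had 1 peak of each protein, with centres 320, 173, 265 and 198 bp apart. Gm genes on chromosomes 14 and 8 had others, among them Gm2237 and Gm3383 with 2 Halo-Sox2 peaks and 1 Halo-Sox2M peak each, and Gm40469 with 1 and 3.

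Over the genome fewer protein-coding genes had a Halo-Sox2M peak than a Halo-Sox2 peak, as the shorter list requires. A peak was given to each gene whose body or 50 kb flank held its centre, so neighbouring genes share peaks. Of 21887 genes, 7071 (32.3%) had a Halo-Sox2 peak and 1381 (6.31%) a Halo-Sox2M peak. The Halo-Sox2 list thinned to 954 peaks gave a mean of 1673 genes (7.64%). Peaks of both were found at 775 genes (3.54%), which is 10.96% of the Halo-Sox2 genes and 56.1% of the Halo-Sox2M genes. With Halo-Sox2 thinned to 954 peaks the mean was 229 genes, 16.6% of the Halo-Sox2M genes. Halo-Sox2 stood without Halo-Sox2M at 6296 genes (28.8%), and Halo-Sox2M without Halo-Sox2 at 606 (2.77%).

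Genes with many Halo-Sox2 peaks more often had a Halo-Sox2M peak. The share was 4.09% of genes with no Halo-Sox2 peak, 8.54% of those with 1, 11.0% with 2, 18.6% with 3 to 4 and 36.9% with 5 or more (72 of 195). Windows of long genes hold more of either kind of peak, and gene length was not set apart here.

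Fewer pluripotency and signalling genes had a Halo-Sox2M peak than the thinned Halo-Sox2 list gave. Of 40 pluripotency genes 29 (72.5%) had a Halo-Sox2 peak and 5 (12.5%) a Halo-Sox2M peak, against 32.3% and 6.31% of all genes. The 5 genes were Sox2, Klf2, Rif1, Foxd3 and Tcf7l1. Halo-Sox2 thinned to the same length gave 10.1 ± 2.51 of 40 (mean and SD over all draws). The difference from Halo-Sox2M was lost when bins of 5 or more peaks were dropped, where the thinned mean was 4.15 and Halo-Sox2M had 4. Dropping bins of 3 or more gave 1.58 and 2. Those settings also took the number of pluripotency genes with a Halo-Sox2 peak from 29 to 15 and 8.

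Among 30 signalling genes, 20 had Halo-Sox2 and 3 had Halo-Sox2M (Spry2, Fgfr2 and Spry4), with a thinned mean of 6.05 ± 2.03. Spry4 is a relative of Spry2. With bins of 5 or more peaks dropped Halo-Sox2M had 1 signalling gene against a thinned mean of 3.27, and with bins of 3 or more 0 against 0.954. Of 30 neural genes 10 had Halo-Sox2 and 1, the homeobox gene Meis1, had Halo-Sox2M, against 2.66 ± 1.31. Both the 20 mesendoderm genes and the 20 genes of other tissues gave 4 with Halo-Sox2, 0 with Halo-Sox2M and a thinned mean of 0.792 ± 0.788. The trophoblast list of 14 gave 6, 1 (Tead4, a TEAD factor of the trophectoderm) and 1.37 ± 1.00.

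Housekeeping genes with a Halo-Sox2M peak outnumbered the thinned mean, and chromatin genes were close to it. Of 20 housekeeping genes 10 had Halo-Sox2 and 5 had Halo-Sox2M, with a thinned mean of 2.26 ± 1.27. These 5 include Actb, Eef2, Sdha and Ppia, which encode a cytoplasmic actin, a translation elongation factor, a subunit of respiratory complex II and a peptidyl-prolyl isomerase. Halo-Sox2M had 4 housekeeping genes against a thinned mean of 1.29 with bins of 5 or more peaks dropped, 1 against 0.791 with bins of 3 or more, and 2 against 0.818 by nearest gene. The peak counted for Sdha lay 49.2 kb away, nearest to Zfp72, and neither Sdha nor Eef2 had a Halo-Sox2M peak by nearest gene. Of 30 chromatin genes 16 and 4 had peaks, the latter being Mtf2, Hdac2, Suz12 and Kat5 (the last 3 a histone deacetylase, a PRC2 subunit and a histone acetyltransferase), with 3.86 ± 1.64. Over the 199 genes of the 8 lists taken once, 96 had Halo-Sox2, 19 had Halo-Sox2M, 16 had both, and the thinned mean was 26.9. The shares of all genes to set beside these and each list were 32.3%, 6.31% and 3.54%, with a thinned mean of 7.64%. Each list is small and was chosen with earlier results of these data known, and single genes decide its Halo-Sox2M count. These counts are a description, and the SD covers the thinning of the Halo-Sox2 list alone.

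**Figure D4:**
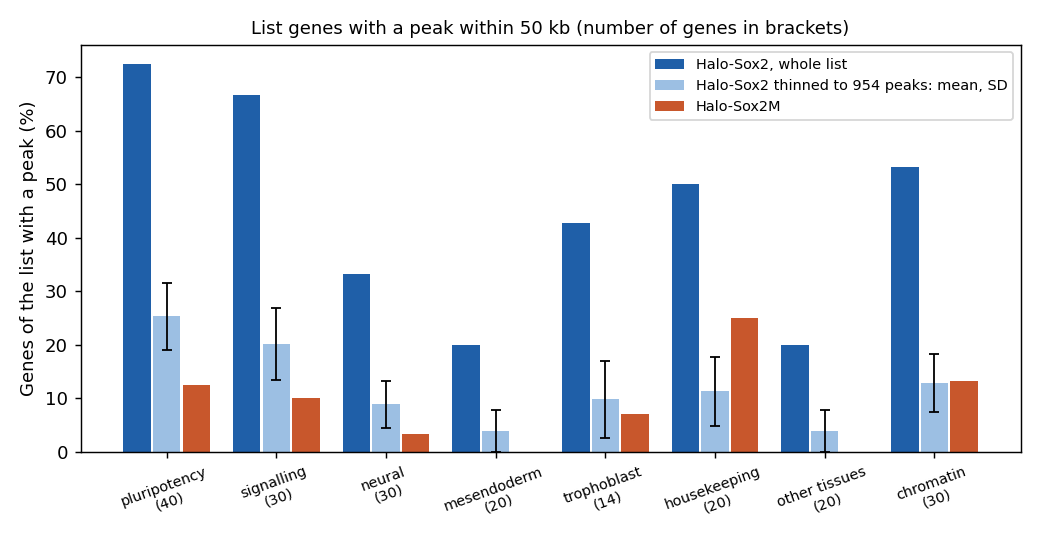
Bars give the percentage of each list's genes with a peak within 50 kb for the whole Halo-Sox2 list, for Halo-Sox2 thinned to 954 peaks (mean, with the SD over all draws) and for Halo-Sox2M. Halo-Sox2M lies below the thinned mean for pluripotency (5 against 10.1 genes) and above it for housekeeping genes (5 against 2.26).

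Among list genes with Halo-Sox2 and no Halo-Sox2M peak, Sox21, a SoxB2 factor of neural progenitors, had the most, with 6. Of these, 5 lay within one place 2.76 to 3.02 kb below the gene. In or within 50 kb of Sox21, endogenous Sox2 had 0 peaks and Halo-Sox2D had 4. Etv5, an ETS factor downstream of FGF signalling, Jarid2, a cofactor of PRC2, Phc1, a PRC1 subunit, Prdm14, a regulator of naive pluripotency, and the chaperone gene Hsp90ab1 had 4 each. Kdm3a, a histone demethylase gene, Nanog and Neurog1 had 3 each. In the other direction Kat5, Meis1 and Ppia had Halo-Sox2M without Halo-Sox2, each with 1 peak. Of the 199 list genes 80 had Halo-Sox2 alone and 3 Halo-Sox2M alone, against 28.8% and 2.77% of all genes.

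The genes with most Halo-Sox2M peaks were neighbours that shared the same peaks. Mrgprd and Mrgprf, neighbouring genes of Mas-related G protein-coupled receptors on chromosome 7, shared 12 Halo-Sox2M and 5 Halo-Sox2 peaks, 17.1 kb above Mrgprd. The 12 peaks lay at 145340966 to 145341435, among the 5 from Halo-Sox2. A tandem array of Gm genes on chromosome 4, Gm13271 to Gm13283, shared 10 Halo-Sox2M and 7 Halo-Sox2 peaks spread along the array. The centres of the 2 proteins were no closer than 846 bp. A Halo-Sox2M peak lay 0.237 kb below each of Gm13276, Gm13277 and Gm13278. Peaks that recur at one position along the array may not be separate signals, and this was not tested. The largest Halo-Sox2M place held 13 peaks on chromosome 14, 124 kb from the nearest protein-coding gene, Fgf14, where Halo-Sox2 had 2.

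The genes with most Halo-Sox2 peaks were Zfp978 and Zfp993 with 19 each, where Halo-Sox2M had 5 and 8. Gm40469 had 14 and 7, and Gm21119 had 11 and 3. Dlgap1, the gene of a postsynaptic scaffold protein, had 12 Halo-Sox2 and 0 Halo-Sox2M peaks. Pakap had 10 and 2, Zfp640 10 and 1, Btn2a2 9 and 3, and Etl4 9 and 2.

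Halo-Sox2M peaks lay less often inside genes and more often at gene ends than Halo-Sox2 peaks. Within 1 kb of an end of a protein-coding gene were 15.8% of Halo-Sox2M peaks (151 of 954) and 10.8% of Halo-Sox2 peaks (629 of 5829), a difference of 5.04 points (2.71 to 7.61). Inside a gene and over 1 kb from its ends were 24.1% and 40.5%, a difference of -16.3 points (-19.2 to -13.3). Over 50 kb from any protein-coding gene were 21.3% and 17.8%, a difference of 3.49 points (0.814 to 6.36). With no bins dropped the shares at gene ends were 11.0% and 10.2%, with intervals that overlap, so the first difference rests on leaving out the dense bins. With those bins left out, Halo-Sox2D, also isolated on the resin, had 21.7% of its peaks at gene ends, and endogenous Sox2 had 6.77%. A high share at gene ends was thus not particular to Halo-Sox2M. Inside a gene and over 1 kb from its ends, Halo-Sox2D had 40.5% and endogenous Sox2 40.1%.

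Near starts of protein-coding and lncRNA genes the Halo-Sox2M peaks lay closer to the start than Halo-Sox2 peaks, as did those of Halo-Sox2D. Within 100 bp of a start were 5.24% of Halo-Sox2M and 2.59% of Halo-Sox2 peaks, a difference of 2.65 points (1.33 to 4.30). Of peaks within 1 kb, 38.8% of 129 and 26.5% of 570 lay within 100 bp, and the median distances were 194 and 244.5 bp. The sides were alike, with 55.8% and 56.8% upstream. Of all Halo-Sox2D peaks 7.59% lay within 100 bp of a start. Of its 2738 peaks within 1 kb, 36.7% lay within 100 bp, and the median distance was 160 bp. Of the 151 Halo-Sox2M peaks at gene ends, 15.2% had Halo-Sox2, 8.61% endogenous Sox2 and 19.9% Halo-Sox2D within 500 bp.

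Short RNA genes took a larger share of the Halo-Sox2M list. Within 200 bp of one lay 4.61% of Halo-Sox2M peaks (44) and 1.39% of Halo-Sox2 peaks (81), a difference of 3.22 points (2.02 to 4.77). At tRNA genes, which RNA polymerase III transcribes, there were 27 Halo-Sox2M peaks (2.83%) and 43 Halo-Sox2 peaks (0.738%). At snRNA genes there were 16 (1.68%) and 26 (0.446%). Of 408 tRNA genes, 42 had Halo-Sox2, 27 had Halo-Sox2M and 3 had both (n-TIaat5, n-TTagt8 and n-TKctt11), while thinned Halo-Sox2 had a mean of 7.28. Of 1004 snRNA genes, 21 had Halo-Sox2, 13 had Halo-Sox2M, 5 had both and the thinned mean was 4.12. Copies of these genes are near-identical, so peaks at any one copy are uncertain.

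**Figure D5:**
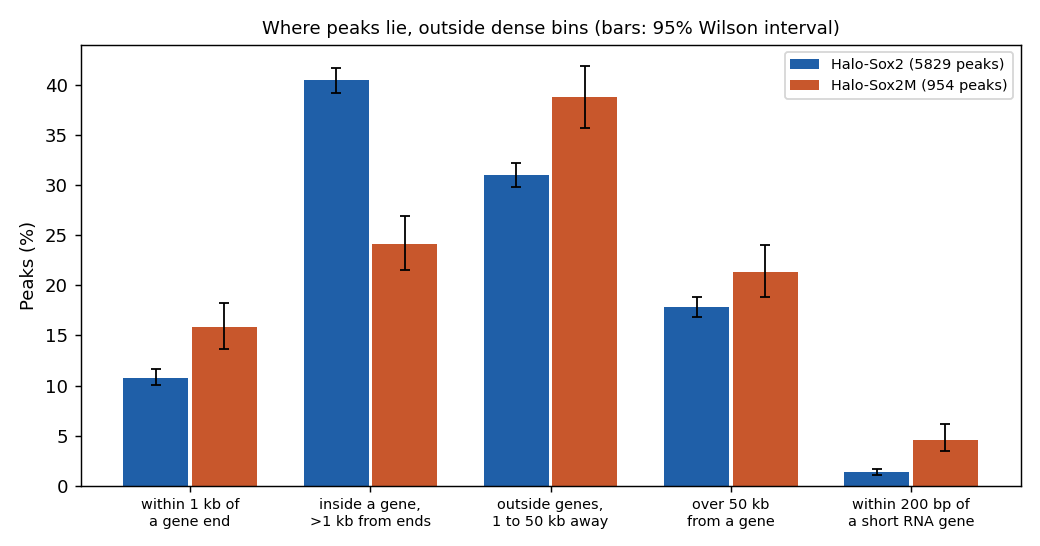
Bars give the percentage of each library's peaks by position relative to protein-coding genes, and near short RNA genes, with 95% Wilson intervals. Halo-Sox2M lies below Halo-Sox2 inside genes (24.1% against 40.5%) and above it at gene ends (15.8% against 10.8%) and short RNA genes (4.61% against 1.39%).

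By chromosome, the Halo-Sox2M list was richer on chromosome 14, with 109 peaks (11.4%, 9.56% to 13.6%) against 6.38% of Halo-Sox2 peaks, and poorer on chromosome 9, with 27 (2.83%, 1.95% to 4.09%) against 4.77%. Thinned Halo-Sox2 gave means of 60.9 and 45.5 there. Of the 109 peaks, 13 lay in the single place nearest to Fgf14 and 15 at the staying places of the span from 3.65 to 7.49 Mb. The excess is thus at least partly local.

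Few promoter windows held a peak of either protein. Of 32817 promoter windows, from 250 bases before to 50 after a start, 240 (0.731%) held a Halo-Sox2 centre and 78 (0.238%) a Halo-Sox2M centre. Only the window of Rps3 held both (0.00305% of windows). Where 0.731% of all windows hold a Halo-Sox2 centre, few shared windows can be looked for among 78. The small overlap is therefore not read as a difference between the proteins. Halo-Sox2 thinned to 954 peaks reached a mean of 41.7 windows. An endogenous Sox2 centre lay in 19 of the Halo-Sox2 windows and 1 of the Halo-Sox2M windows, and a Halo-Sox2D centre in 56 and 14.

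Named after their values were seen, the 61 protein-coding genes with a Halo-Sox2M promoter peak include genes of cytoplasmic ribosomal proteins (Rps3 and Rps9), of mitochondrial ribosomal proteins (Mrpl1, Mrpl42 and Mrps17) and of other mitochondrial proteins (Clpp, Ssbp1 and Atp5c1). The 61 also include Rfx4, Sema5b, Faxc, Zfp931 and Zfp959, which belong to none of these groups. The groups were not tested, and their shares among all promoters or among those of the other lists were not computed. Some peaks lay between genes with opposite strands, as at Bag1 and Chmp5 and at Atp5c1 and Kin. Genes of the Gm13275 array and its neighbours account for 5 of the 72 genes.

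The Sox core lay near Halo-Sox2 promoter peaks more often than across promoters as a whole. Both cores, ACAAAG and ACAATG, were searched on both strands in the 41 bases centred on each peak, where the promoter sequence covered them. A core was present at 33 of 207 Halo-Sox2 peaks (15.9%, 11.6% to 21.5%), among them those of Nanog and Neurog1, and in 4.22% of all stretches of that length in promoters. Moved 60 bases upstream or downstream, the stretches held it at 5.66% and 4.24%. With endogenous Sox2 within 500 bp the share was 10 of 23 (43.5%, 25.6% to 63.2%), and without it 23 of 184 (12.5%, 8.48% to 18.1%).

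At Halo-Sox2M promoter peaks the core was present at 5 of 54 (9.26%, 4.02% to 19.9%), an interval that includes the Halo-Sox2 share and, near its lower end, the share over all promoters. Moved 60 bases upstream or downstream, the stretches held it at 1 of 42 (2.38%) and 1 of 37 (2.70%). Within 10 bases of the centre it was found at 0 of 61 Halo-Sox2M peaks, which allows a share of up to 4.92% by 3 counts of the total and 5.92% by the Wilson upper limit, at 21 of 222 Halo-Sox2 peaks (9.46%, 6.27% to 14.0%) and in 1.90% of all stretches. Within 50 bases it was found at 6.98% of Halo-Sox2M peaks, 22.2% of Halo-Sox2 peaks and 10.9% of all stretches. The absence of these letters says nothing about whether a factor was bound there.

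Over whole promoter windows other motifs were counted, so these shares are not compared with those of the cores near peak centres. CATTGTT or CTTTGTT was present on either strand in 11.25% of Halo-Sox2 windows, 6.41% of Halo-Sox2M windows and 9.36% of all windows. The octamer core ATGCAAA was present in 6.25%, 3.85% and 4.63%, and the GC box GGGCGG in 52.1%, 53.8% and 35.6%. The median GC content was 57.3% in Halo-Sox2 windows, 59.7% in Halo-Sox2M windows and 52.7% in all windows, with a median of 18, 21 and 7 CpG dinucleotides. Both sets of promoters were thus richer in GC and CpG than promoters at large.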

How the data were processed

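Peak lists of 4 ChIP-exo libraries were used. The authors deposited each as positions alone (chromosome, start, end), with neither scores nor read numbers. Per the submitters' processing notes, Bowtie2 and mm10 were used. The Bowtie2 version, peak caller, threshold and treatment of multi-mapping reads were not given in the sources used here. Depth and peak strength are therefore unknown.

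Starts were read as 0-based and coordinates are printed 1-based. Peak widths were 1 to 20 bp, with a median of 11 bp in both lists compared. Centres, places, gene windows, shares with 95% Wilson intervals and Newcombe intervals of differences were computed in Python 3.11.15 with numpy 2.4.6, pandas 2.3.3 and scipy 1.17.1, and plotted with matplotlib 3.10.9. The code was tested on simulated data. Thinning used the exact hypergeometric mean. Genes were placed by RefSeq's GRCm38.p6 table (49943 genes, 21887 protein-coding), and promoter sequences from RefSeq promoters of that build (32851 windows, 32817 of them distinct). All 199 list symbols matched.

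The comparison, lists and members were chosen with earlier results of these data known. The motif cores near peak centres, the spans of staying places and the printed sequences were chosen after the data were seen. Genes were named by a rule: Sox2, Pou5f1 and Nanog; list genes with peaks of both libraries (up to 15 by summed peaks); up to 10 list genes with Halo-Sox2 alone and 10 with Halo-Sox2M alone; the 10 protein-coding genes with most peaks of each library; up to 15 with a staying place within 1 kb of an end; and genes whose promoter held both. A result that the rule names is not reported here. Other genes are said to be named after their values were seen. Alternatives were other dense-bin limits, autosomes and X alone, other gene windows, gene-end distances and annotations, other overlap rules and joined peaks.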

Additional observations from a re-analysis of the deposited data

Results flagged for a closer look

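Peaks outside the comparison made up 11.1% of the Halo-Sox2 list and 44.2% of the Halo-Sox2M list. On mitochondrial DNA there were 98 Halo-Sox2 peaks and 15 Halo-Sox2M peaks. On unplaced or random sequence there were 265 Halo-Sox2 peaks and 287 Halo-Sox2M peaks, most of them (247 and 274) on the contig JH584304. The dense bins held 366 Halo-Sox2 peaks and 455 Halo-Sox2M peaks. Halo-Sox2M, the shorter list, thus had more peaks than Halo-Sox2 in both the unplaced sequence and the dense bins. These peaks lie in data that the comparison leaves out, and no library without a Sox2 protein was used here to set them against.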

How the results depend on the processing

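Peak numbers, gene shares and place shares depended mainly on the dense-bin limit and on distances. The ratio of Halo-Sox2 to Halo-Sox2M peaks was 6.11, 6.85 with bins of 5 or more peaks dropped and 4.40 with no bins dropped (3.83 over the deposited lists). The share of Halo-Sox2 places that stayed, 2.18%, was 1.40% and 0.980% with bins of 5 or 3 or more peaks dropped, 3.05% with none dropped, 1.20% for centres within 50 bp, 0.777% for peaks overlapping by at least 1 bp and 1.57% without the 5 spans. The share of Halo-Sox2M peaks with Halo-Sox2, 21.2%, was 11.1% and 6.07% with bins of 5 or 3 or more peaks dropped, 38.8% with none dropped, 11.7% within 50 bp, 4.93% for any overlap, 2.10% for a reciprocal overlap of 50% and 18.2% without the 3 largest Halo-Sox2M places.

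Genes with Halo-Sox2M and Halo-Sox2 peaks were 5.14% and 28.4% with bins of 5 or more peaks dropped, and 3.84% and 20.4% with bins of 3 or more (thinned mean 878 genes). They were 3.60% and 20.4% with 20 kb windows (975 genes), 9.84% and 46.2% with 100 kb (2720 genes) and 3.33% and 17.3% by nearest gene (872 genes). Pluripotency genes with Halo-Sox2, and the thinned mean, were 15 and 4.15 for bins of 5, and 8 and 1.58 for bins of 3, where Halo-Sox2M had 2. Signalling genes with Halo-Sox2M, and the thinned mean, were 1 and 3.27 for bins of 5, and 0 and 0.954 for bins of 3, where Halo-Sox2 had 5. The thinned mean of housekeeping genes was 1.29 for bins of 5 and 3.67 with 100 kb. For bins of 3, Halo-Sox2M had 1 housekeeping gene, Halo-Sox2 4 and the thinned mean was 0.791, by nearest gene 2, 5 and 0.818, and with 20 kb Halo-Sox2 had 6 with a thinned mean of 1.12. The thinned mean of chromatin genes was 2.46 for bins of 5 and 1.47 for bins of 3, where Halo-Sox2 had 9. Halo-Sox2M had 2 chromatin genes with 20 kb and by nearest gene, where Halo-Sox2 had 10 and the thinned mean was 2.57. At gene ends Halo-Sox2M and Halo-Sox2 shares were 21.1% and 16.0% within 2 kb, 30.0% and 26.4% within 5 kb (intervals overlap), and 26.0% and 17.0% for all annotated genes. Halo-Sox2M was 11.0% with no bins dropped. Inside genes they were 36.9% and 46.96% for bins of 5, 37.1% and 47.6% for bins of 3, 24.4% and 43.4% with none dropped, and 45.1% and 55.4% for all annotated genes. Sox cores within 10 bases were at 0% and 9.46%, and within 50 bases at 22.2% of Halo-Sox2 peaks. Halo-Sox2M kept the lower share inside genes in each of these settings. The cause of these shifts was not tested. Of 406 single-gene values under an alternative, 327 stayed within 1.5 times. That number includes values of 0 that stayed 0, so it is no measure of stability. With bins of 5 or more peaks dropped, genes left with 0 Halo-Sox2 peaks included Pou5f1, Nanog, Klf2, Mtf2, Spry2, Sox21, Etv5 and Phc1. Others, among them Sox2, Fgfr2, Foxd3, Rif1, Prdm14, Kdm3a and Neurog1, kept all of theirs.

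No paired analysis was possible because each group held 1 library. A stricter peak threshold was not run, since the lists hold no score.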
